A study of Mus musculus with 11 samples.

Results

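The genes of 6 chemokine receptors, Ccr7, Ccr9, Cxcr4, Cxcr3, Ccr8 and Cxcr6, were followed in activated mouse CD8+ T cells. They were chosen by name as members of a family and make up 6 of the 25562 gene symbols of the deposited TPM table, and all 6 were found in it. The cells came from spleens of C57BL/6 mice, an inbred strain, and were isolated with a kit for CD8+ T cells. After 22 h of pretreatment, anti-CD3 at 1 µg/mL and anti-CD28 at 0.5 µg/mL stimulated them over a further 24 h. In the AOAH group (4 libraries) the cells received 10 µg/mL recombinant human AOAH with a His tag, together with the ethanol control. AOAH, acyloxyacyl hydrolase, is a lipase that deacylates lipopolysaccharide and phospholipids. In the PC16 group (3 libraries) the cells received 60 µM PC16:0-20:4, a phosphatidylcholine with palmitic and arachidonic acid, and a protein buffer control of PBS with 10% glycerol. In the vehicle group (4 libraries) they received the ethanol control and the same buffer. The labels place AOAH in the pretreatment in one field and in the activation step in another, name both plate-bound antibody and beads, and give the medium with or without interleukin-2. No glycerol content is given for the AOAH group, so buffer and enzyme cannot be told apart there. Libraries are numbered by batch, 1 to 4, and no PC16 library belongs to batch 4. Nothing in the labels says that the libraries came from separate mice or cultures, and p-values here reflect no more than library-to-library spread, possibly technical.

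Chemokine receptors are seven-helix membrane proteins that couple to inhibitory G proteins and steer migrating leukocytes along gradients of small secreted proteins. A CD8+ T cell changes its set of receptors as it leaves the naive state. CCR7 admits naive cells to lymph nodes, and receptors such as CXCR3 and CXCR6 are carried by effector cells that enter inflamed or peripheral tissue. CCR9 binds CCL25 and directs cells to the small intestine. CXCR4 binds CXCL12 and holds cells in bone marrow, and CCR8 binds CCL1 and is best known on regulatory T cells and in skin.

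The start regions of the receptor genes were read from RefSeq (build GRCm38.p6), in which 5 of the 6 receptors had an entry and Ccr7 had none. They are shown for Cxcr4 and Ccr9, the receptors with the largest falls with AOAH, and for Cxcr3, whose mean was below vehicle with either treatment. Each is the stretch of 250 bases before the annotated start, written 5′ to 3′ on the strand of the gene, with motif matches in capitals. Both strands were searched for the letters TATAAA of the TATA box, for CACCC, to which KLF factors bind, for the FOXO motif GTAAACA, and for the T-box motif TCACAC.
Cxcr4, chr1:128592300-128592549, minus strand: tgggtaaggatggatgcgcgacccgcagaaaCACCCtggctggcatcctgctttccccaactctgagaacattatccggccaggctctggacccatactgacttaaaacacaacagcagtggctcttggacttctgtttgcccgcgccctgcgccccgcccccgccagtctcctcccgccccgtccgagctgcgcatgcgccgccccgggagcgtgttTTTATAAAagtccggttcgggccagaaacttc
Ccr9, chr9:123766961-123767210, plus strand: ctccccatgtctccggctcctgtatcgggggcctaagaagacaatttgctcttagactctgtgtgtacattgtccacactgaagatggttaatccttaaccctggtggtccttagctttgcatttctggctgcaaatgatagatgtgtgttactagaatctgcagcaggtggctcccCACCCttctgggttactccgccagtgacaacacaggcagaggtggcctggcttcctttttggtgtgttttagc
Cxcr3, chrX:101734148-101734397, minus strand: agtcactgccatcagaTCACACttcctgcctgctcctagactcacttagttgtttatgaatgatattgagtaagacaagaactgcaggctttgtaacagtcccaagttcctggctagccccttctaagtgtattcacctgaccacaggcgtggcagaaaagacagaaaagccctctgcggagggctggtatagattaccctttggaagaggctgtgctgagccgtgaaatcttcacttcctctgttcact
The Cxcr4 stretch held TATAAA, starting 30 bases before the start, on an overlapping site that also reads TATAAA on the other strand. It held 1 CACCC, starting 219 bases before the start, and the Ccr9 stretch held 1, starting 73 bases before it. The Cxcr3 stretch held 1 TCACAC and no CACCC. Of 32851 stretches of this length, 12.4% held the TATA box letters, 52% the KLF motif, 3.17% the FOXO motif and 12.3% the T-box motif. Ccr8 held 1 CACCC and Cxcr6 none of the 4 motifs, and a match is only a description of these letters.

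RNA was measured in 11 libraries as TPM, a share of the transcripts of a library corrected for transcript length, in which levels of different genes can be set side by side. Between 11423 and 11739 genes per library reached 1 TPM, and sequencing depth is unknown. The CD8 T cell markers Cd8a, Cd8b1, Cd3e, Cd3d and Trac summed to 1182 to 1220 TPM in AOAH libraries, 1530 to 1588 TPM in PC16 libraries and 1309 to 1344 TPM in vehicle libraries, and 5 of 5 were present. These sums are lowest with AOAH and highest with PC16, an order that several receptors below share, and their part in the receptor results was not tested. Against vehicle, Cd8b1 (log2 change -0.27), Cd3d (-0.24) and Cd8a (-0.17) were called lower with AOAH. Cd3e (-0.05, limma adjusted p = 0.196) and Trac (0.01, 0.91) did not pass. With PC16 all 5 were called higher, from 0.14 for Cd3d to 0.42 for Trac. Markers of other cells that carry these receptors were low. Of 5 B cell markers, 4 stayed under 1 TPM in every library, among them Cd79a, Ms4a1 and Pax5. The B cell sum, nearly all of it Cd79b, was 7.08 to 9.3 TPM in AOAH libraries, 6.2 to 7.64 TPM in PC16 libraries and 7.56 to 9.77 TPM in vehicle libraries. Cd4 stayed under 1 TPM, and Cd4, Foxp3 and Ikzf2 together reached 1.9 to 2.25 TPM with AOAH, 2.3 to 3.27 TPM with PC16 and 2.49 to 2.99 TPM with vehicle. The markers of NK cells Ncr1 and Klrb1c were under 1 TPM, while Eomes, which activated CD8+ T cells also express, brought that list to 81.1 to 87.6 TPM with AOAH, 78.8 to 84.3 TPM with PC16 and 97 to 101 TPM with vehicle. Summed markers of gamma delta T cells, dendritic cells, monocytes and macrophages, and erythroid cells did not exceed 2.72 TPM in any library, but some moved in the same direction as the receptors. The monocyte and macrophage sum was 0.06 to 0.81 TPM with AOAH, 0.89 to 2.67 TPM with PC16 and 0.57 to 1.9 TPM with vehicle, and the gamma delta T cell sum was 0.82 to 1.27 TPM with AOAH, 1.44 to 1.51 TPM with PC16 and 1.25 to 1.6 TPM with vehicle. Trdc was lower with AOAH than with vehicle (log2 change -0.35, limma adjusted p = 0.0421) and than with PC16 (-0.35, 0.0431). Lyz2 and Ikzf2 were lower with AOAH than with PC16 (log2 changes -1.01 and -0.37, limma adjusted p = 0.0217 and 0.0389). Eomes was lower than vehicle with AOAH (-0.22) and with PC16 (-0.29). No alternative was run for the markers, and their part in the receptor results was not tested. Of those lists Trdc, Zbtb46 and Lyz2 were the markers that reached 1 TPM in some library, and no marker on any list was at 0 in all 11 libraries. The 3 neutrophil markers were not analysed here.

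The 6 receptors kept a single order of level in every library. Ccr7 came first with 334 to 487 TPM, which was 84.8% to 88.4% of the summed TPM of the 6 genes. Below it, in every library, came Cxcr3, then Cxcr6, Cxcr4, Ccr9 and, lowest, Ccr8. The distances between neighbours were not alike in the 3 groups. In PC16 libraries Cxcr3, at 26.3 to 28.4 TPM, and Cxcr6, at 25.1 to 26.5 TPM, had ranges that overlapped, whereas in AOAH libraries Cxcr3 lay at 23.7 to 26.9 TPM and Cxcr6 at 14.6 to 15.7 TPM. Cxcr4 and Ccr9 were close together in AOAH libraries, with 2.52 to 4.46 TPM and 1.71 to 2.16 TPM, and far apart in PC16 libraries, with 17.6 to 20 TPM and 5.99 to 6.66 TPM.

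**Figure D1:**
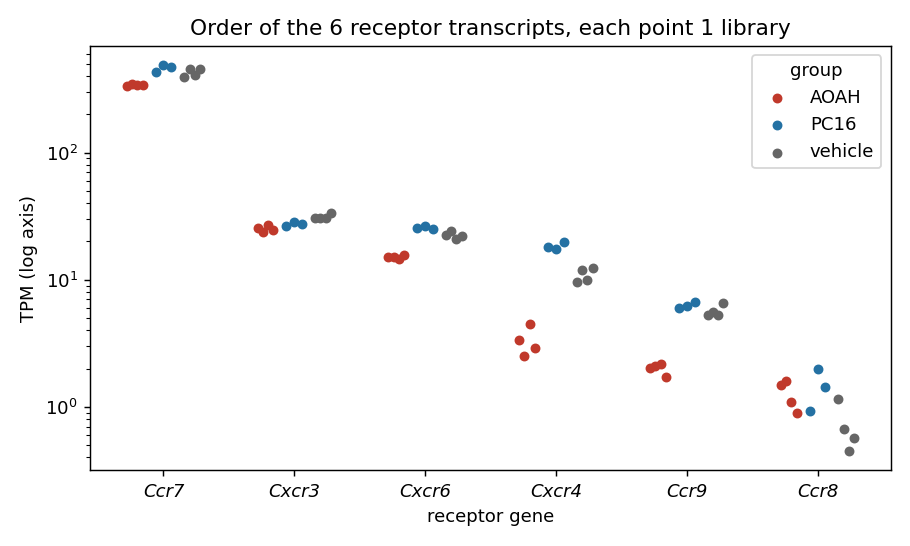
TPM of the 6 receptor genes on a log axis, ordered by their mean over all libraries, with 1 point per library and the groups AOAH, PC16 and vehicle in separate colours. Ccr7 stands above all others at 334 to 487 TPM, and Cxcr4 spans the widest range between groups, from 2.52 TPM in an AOAH library to 20 TPM in a PC16 library.

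AOAH against vehicle asked how these receptors differed in cells given AOAH, where buffer and enzyme cannot be told apart. All 5 receptors that could be tested were lower with AOAH. The largest falls were in Cxcr4, which averaged 3.3 ± 0.841 TPM in AOAH libraries, against 10.9 ± 1.35 TPM in vehicle libraries, and in Ccr9, which averaged 1.99 ± 0.197 TPM in AOAH libraries, against 5.7 ± 0.62 TPM in vehicle libraries (SD, 4 libraries a group). Cxcr6, Ccr7 and Cxcr3 fell less. Ccr8, the lowest of the 6, was the receptor whose mean was not lower. Of all 11561 genes tested 25.2% were called in either direction and 12.1% were called lower, at a Benjamini-Hochberg adjusted p under 0.05 from limma. The median log2 change of the 5 receptors was -0.54, against 0.01 for all genes tested. In these bulk samples fewer cells carrying a receptor and less of its RNA per cell cannot be told apart.

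Ccr7, the receptor for CCL19 and CCL21 that brings naive T cells into lymph nodes, stood at 334, 344, 340 and 341 TPM in AOAH libraries 1 to 4, against 396, 458, 405 and 459 TPM in vehicle libraries 1 to 4. The AOAH libraries lay close together and all below the lowest vehicle library. The log2 change was -0.33 ± 0.05 (SE, limma adjusted p = 0.00153).

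Ccr9, the receptor for the gut chemokine CCL25, stood at 2.03, 2.08, 2.16 and 1.71 TPM in AOAH libraries, against 5.30, 5.55, 5.32 and 6.61 TPM in vehicle libraries. No AOAH library came near the vehicle range, and the ratio of the means was 0.35. The log2 change of TPM plus 1, a scale that understates changes of low genes, was -1.16 ± 0.09 (SE, limma adjusted p = 5.56e-05), and -0.61 with a pseudocount of 5.

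Cxcr4, the receptor for CXCL12, stood at 3.34, 2.52, 4.46 and 2.89 TPM in AOAH libraries, against 9.60, 11.9, 9.99 and 12.3 TPM in vehicle libraries. The highest AOAH library was below the lowest vehicle library and the ratio of the means was 0.302. The log2 change was -1.49 ± 0.14 (SE, limma adjusted p = 1.44e-04), and -0.94 with a pseudocount of 5.

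Cxcr3, the receptor for the interferon-induced chemokines CXCL9, CXCL10 and CXCL11, stood at 25.5, 23.7, 26.9 and 24.6 TPM in AOAH libraries, against 30.5, 30.4, 30.8 and 33.5 TPM in vehicle libraries. The groups did not overlap, with vehicle 4 above the other vehicle libraries. The log2 change was -0.30 ± 0.05 (SE, limma adjusted p = 0.00295).

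Cxcr6, the receptor for CXCL16, which is carried by effector and tissue-resident T cells, stood at 15.1, 15.1, 14.6 and 15.7 TPM in AOAH libraries, against 22.6, 24.2, 20.8 and 22 TPM in vehicle libraries. The AOAH values were tightly grouped and below all vehicle values. The log2 change was -0.54 ± 0.05 (SE, limma adjusted p = 1.90e-04).

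Ccr8, the receptor for CCL1, stood at 1.49, 1.60, 1.09 and 0.89 TPM in AOAH libraries, against 1.15, 0.67, 0.45 and 0.57 TPM in vehicle libraries. The groups overlapped, since vehicle 1 was above AOAH 3 and AOAH 4. Its mean over these 8 libraries was below the minimum of 1 TPM set for testing. Without that minimum the log2 change was 0.41 (95% confidence interval 0.06 to 0.77, limma adjusted p = 0.159), which did not pass.

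**Figure D2:**
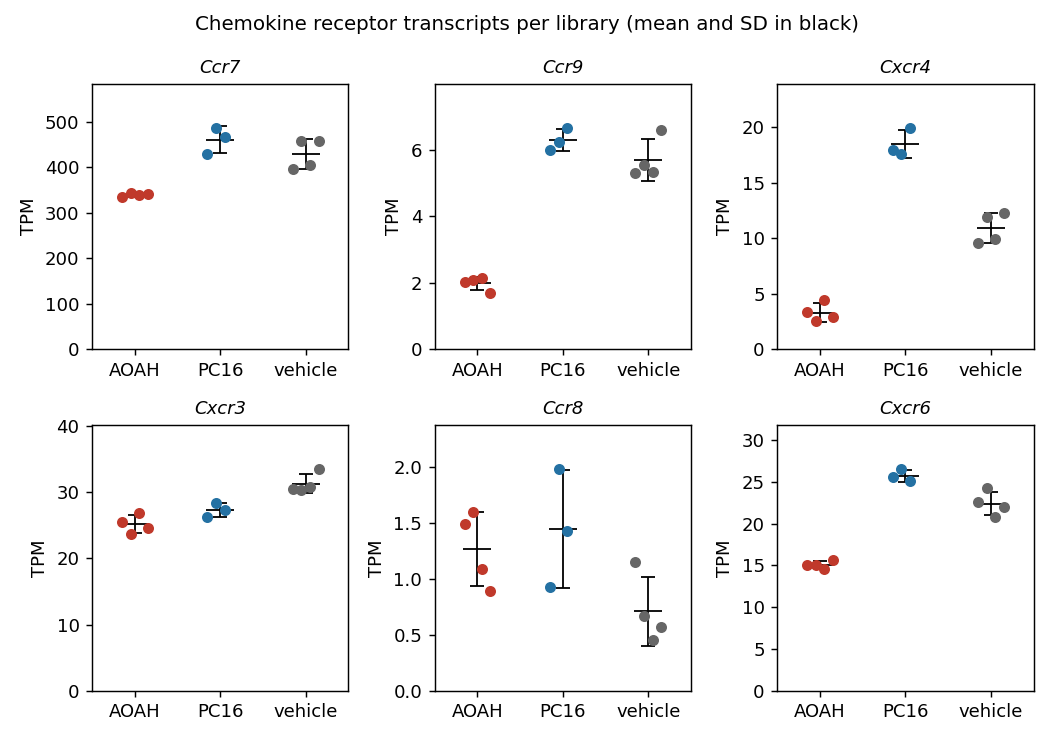
TPM of each receptor gene in every AOAH, PC16 and vehicle library, on a separate linear axis from 0 for each gene. Points are libraries and black bars are the group mean and SD; Ccr9 and Cxcr4 are lowest in the 4 AOAH libraries, Cxcr4 is highest in the 3 PC16 libraries at 17.6 to 20 TPM, and Ccr8 overlaps between groups.

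The comparison of PC16 with vehicle libraries 1 to 3 asked what the phosphatidylcholine changed. Cxcr4 was the receptor that rose, to 18.5 ± 1.27 TPM in PC16 libraries, against 10.5 ± 1.24 TPM in vehicle libraries (SD, 3 libraries a group). The other 5 receptors did not pass the test. Of all 11628 genes tested 19.5% were called in either direction and 8.27% were called higher, and the median log2 change was 0.19 for the 6 receptors and -0.01 for all genes. The 1 of 6 receptors called with PC16 is near the share of all genes called in either direction. Vehicle libraries 1 to 3 also serve in the comparison with AOAH, so the changes of the 2 treatments against vehicle share these libraries.

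Cxcr4 stood at 17.9, 17.6 and 20 TPM in PC16 libraries 1 to 3, against 9.60, 11.9 and 9.99 TPM in vehicle libraries 1 to 3. All PC16 libraries were above all vehicle libraries, vehicle 4 at 12.3 TPM included. The log2 change was 0.76 ± 0.09 (SE, limma adjusted p = 0.00258).

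Ccr9 stood at 5.99, 6.23 and 6.66 TPM in PC16 libraries, against 5.30, 5.55 and 5.32 TPM in vehicle libraries 1 to 3. These ranges did not overlap, but vehicle 4, at 6.61 TPM, lay inside the PC16 range. The log2 change was 0.19 (95% confidence interval 0.02 to 0.36, limma adjusted p = 0.119), and 0.12 with a pseudocount of 5.

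Cxcr6 stood at 25.6, 26.5 and 25.1 TPM in PC16 libraries, against 22.6, 24.2 and 20.8 TPM in vehicle libraries 1 to 3. The PC16 libraries were all higher, with a log2 change of 0.18 (95% confidence interval 0.03 to 0.34, limma adjusted p = 0.0919). The change passed with vehicle 4 included (log2 change 0.19, adjusted p = 0.0469), with 1 fit over all 11 libraries (0.0216) and without vehicle 2 (log2 change 0.23, 0.0462).

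Cxcr3 stood at 26.3, 28.4 and 27.3 TPM in PC16 libraries, against 30.5, 30.4 and 30.8 TPM in vehicle libraries 1 to 3. It was lower in each PC16 library, with a log2 change of -0.16 (95% confidence interval -0.26 to -0.05, limma adjusted p = 0.0524). It passed with vehicle 4 included (log2 change -0.19, adjusted p = 0.0307), with 1 fit over all libraries (0.0230) and with a minimum of 5 TPM (0.04675).

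Ccr7 stood at 428, 487 and 467 TPM in PC16 libraries, against 396, 458 and 405 TPM in vehicle libraries 1 to 3. The groups overlapped, and the log2 change was 0.14 (95% confidence interval -0.02 to 0.30, limma adjusted p = 0.211). Ccr8 stood at 0.93, 1.98 and 1.43 TPM in PC16 libraries, against 1.15, 0.67 and 0.45 TPM in vehicle libraries 1 to 3. Its values were scattered in both groups and overlapped, with a log2 change of 0.47 (95% confidence interval -0.04 to 0.99, limma adjusted p = 0.180), which was 0.16 with a pseudocount of 5 and 0.88 with 0.1.

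**Figure D3:**
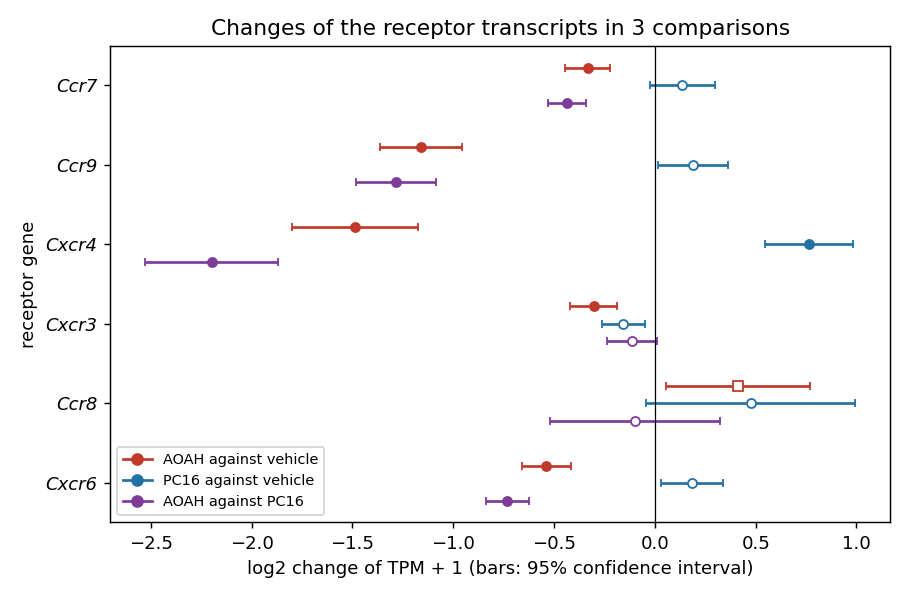
Log2 change of TPM plus 1 with its 95% confidence interval for each receptor gene in 3 comparisons, filled where the limma adjusted p was under 0.05. The square for Ccr8 in AOAH against vehicle comes from the test without an expression minimum; Cxcr4 is at -1.49, 0.76 and -2.20 in the 3 comparisons, and the Cxcr3 points are all below 0.

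AOAH was also compared with PC16 directly, which tests whether the cells given the lipase and those given the phospholipid differed. Of all 11596 genes tested 45.8% were called and 21.5% were lower with AOAH. Cxcr4, Ccr9, Cxcr6 and Ccr7 were lower with AOAH, and Cxcr3 and Ccr8 did not pass. Cxcr4 averaged 3.3 ± 0.841 TPM with AOAH (n = 4) and 18.5 ± 1.27 TPM with PC16 (SD, n = 3), 5.6 times as much with PC16. Its log2 change was -2.20 ± 0.14 (SE, limma adjusted p = 1.49e-05). Ccr9 averaged 1.99 TPM with AOAH and 6.29 TPM with PC16 (log2 change -1.29 ± 0.09, limma adjusted p = 1.68e-05, and -0.69 with a pseudocount of 5). Cxcr6 averaged 15.1 TPM with AOAH and 25.7 TPM with PC16 (log2 change -0.73 ± 0.05, limma adjusted p = 1.25e-05). Ccr7 averaged 340 TPM with AOAH and 461 TPM with PC16 (log2 change -0.44 ± 0.04, limma adjusted p = 9.10e-05). Each of these genes was lower in every AOAH library than in any PC16 library. The share of all genes with ranges separated in this way was not counted in any comparison, and the 45.8% called is another measure. Cxcr3 overlapped between the groups, with a log2 change of -0.12 (95% confidence interval -0.24 to 0.01, limma adjusted p = 0.115). The interval for Ccr8 was wide, from -0.52 to 0.32 around -0.10 (limma adjusted p = 0.690), and the sign turned without PC16 2 (0.05).

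Ratios of receptors within a library do not depend on how the library was scaled. For each 100 TPM of Ccr7 there were 0.733 to 1.31 TPM of Cxcr4 in AOAH libraries, 3.61 to 4.27 TPM in PC16 libraries and 2.42 to 2.68 TPM in vehicle libraries. These 3 ranges were separate, so Cxcr4 was low relative to Ccr7 in AOAH libraries and high in PC16 libraries. For each 100 TPM of Ccr7 there were 0.501 to 0.636 TPM of Ccr9 with AOAH, 1.28 to 1.43 TPM with PC16 and 1.21 to 1.44 TPM with vehicle. For each 100 TPM of Ccr7 there were 6.89 to 7.92 TPM of Cxcr3 with AOAH, 5.83 to 6.13 TPM with PC16 and 6.63 to 7.69 TPM with vehicle, so that here the AOAH and vehicle ranges overlapped. For each 100 TPM of Cxcr3 there were 54.1 to 63.8 TPM of Cxcr6 with AOAH, 91.8 to 97.3 TPM with PC16 and 65.6 to 79.8 TPM with vehicle.

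Ccr9, Cxcr6 and Ccr8 lie on chromosome 9, Cxcr4 on chromosome 1, Ccr7 on chromosome 11 and Cxcr3 on the X chromosome. In the order of protein-coding genes on chromosome 9, Ccr9 is followed by Fyco1, an adaptor of vesicle transport, and then by Cxcr6 and Xcr1. Fyco1 was lower with AOAH as well, averaging 2.31 TPM in AOAH libraries, against 3.29 TPM in vehicle libraries, and its log2 change of -0.38 passed (limma adjusted p = 0.0237, with no alternative run). Lztfl1, on the other side of Ccr9, averaged 16.9 TPM in AOAH libraries, against 17.8 TPM in vehicle libraries, and did not pass (log2 change -0.06, limma adjusted p = 0.595). Xcr1 stayed under 1 TPM in every library. Among the neighbours looked up for the other receptors, those past the threshold with AOAH moved both ways. Top2a near Ccr7 (log2 change 0.40) rose, as did Mcm6 (0.21) and Dars (0.13) near Cxcr4. Cd55 near Cxcr4 (-0.73) and Ogt near Cxcr3 (-0.32) fell, also with no alternative run. These neighbours, 3 protein-coding genes on either side of each receptor, were looked up after the receptor values were seen. Beside them, 25.2% of all genes tested were called in either direction with AOAH. The share called among the neighbours was not set against it.

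Across the 11 libraries the genes most like each receptor were sought by Pearson's r of log2(TPM + 1). The 8627 genes searched averaged 5 TPM or more, and symbols of Gm plus digits or ending in Rik were passed over. The libraries fall into 3 groups, which all of these points share, so the values are a description only. Cxcr4 was closest to H2-D1, a classical MHC class I gene (r = 0.996), Ypel3 (0.996) and Pecam1, an adhesion molecule (0.995). Ypel3 averaged 17.3 TPM with AOAH, 83.4 TPM with PC16 and 49.8 TPM with vehicle. Ccr9 was closest to Cnp (0.992), Slfn1, a Schlafen gene of quiescent T cells (0.989), and Slc6a19, an amino acid transporter (0.989). Slfn1 averaged 28.4 TPM with AOAH, 83.3 TPM with PC16 and 68.6 TPM with vehicle. Cxcr6 was closest to Txnip, a brake on glucose uptake (0.987), Akap8l (0.986) and Satb1, a chromatin organiser of T cells (0.986). Ccr7 was closest to Akna (0.975), Fam193b (0.967) and Fam98c (0.965). Cxcr3 was closest to Skap1, an adaptor of integrin activation (0.956), Slco3a1 (0.951) and Gbp2, an interferon-induced GTPase (0.950). Gbp2 averaged 390 TPM with AOAH, 434 TPM with PC16 and 530 TPM with vehicle. Ccr8 had lower values, with Araf at 0.920, Nus1 at 0.859 and Uhrf1bp1l at 0.856. Araf averaged 58.2 TPM with AOAH, 59.7 TPM with PC16 and 56.7 TPM with vehicle.

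The remaining chemokine receptors gave few transcripts. Of 17 other receptors listed, 15 were in the table, 10 stayed under 1 TPM in every library, among them Ccr1, Cxcr1, Cxcr2 and Cx3cr1, and 4 were tested. With AOAH 1 of the 4 passed, Ccr2, a receptor for CCL2, which fell to 1.3 ± 0.11 TPM with AOAH, against 1.82 ± 0.0719 TPM with vehicle (log2 change -0.30, limma adjusted p = 0.0361). That call was lost when batch entered as a block (limma adjusted p = 0.0966), with quantile normalization (0.0891) and without any 1 of the 8 libraries (0.0597 to 0.0931). With PC16 2 of the 4 fell, Ccr4 and Cxcr5. Of all genes 25.2% were called in either direction with AOAH and 19.5% with PC16, and 12.1% and 11.2% were called lower. The 1 of 4 called with AOAH is near the share called in either direction. Ccr4, a receptor for CCL17 and CCL22, stood at 3.14, 3.32 and 2.89 TPM in PC16 libraries, against 5.35, 5.74 and 7.31 TPM in vehicle libraries 1 to 3 (log2 change -0.78 ± 0.12, SE, limma adjusted p = 0.00577). Ccr4 was also higher with AOAH than with PC16 (log2 change 0.84, limma adjusted p = 1.52e-04), opposite to Cxcr4 in that comparison.

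Cxcr5, which guides lymphocytes to follicles, stood at 7.04, 7.26 and 8.31 TPM in PC16 libraries, against 11.8, 11.4 and 9.20 TPM in vehicle libraries 1 to 3. Vehicle 4, at 5.01 TPM, lay below all of them. The log2 change of -0.46 (limma adjusted p = 0.0264) was lost with vehicle 4 included (adjusted p = 0.584), with 1 fit over all libraries (0.589), with no expression minimum (0.0743) and with batch as a block (0.0779). It was also lost without PC16 1 (0.0795), PC16 2 (0.0807), vehicle 1 (0.0855) or vehicle 2 (0.0723).

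**Figure D4:**
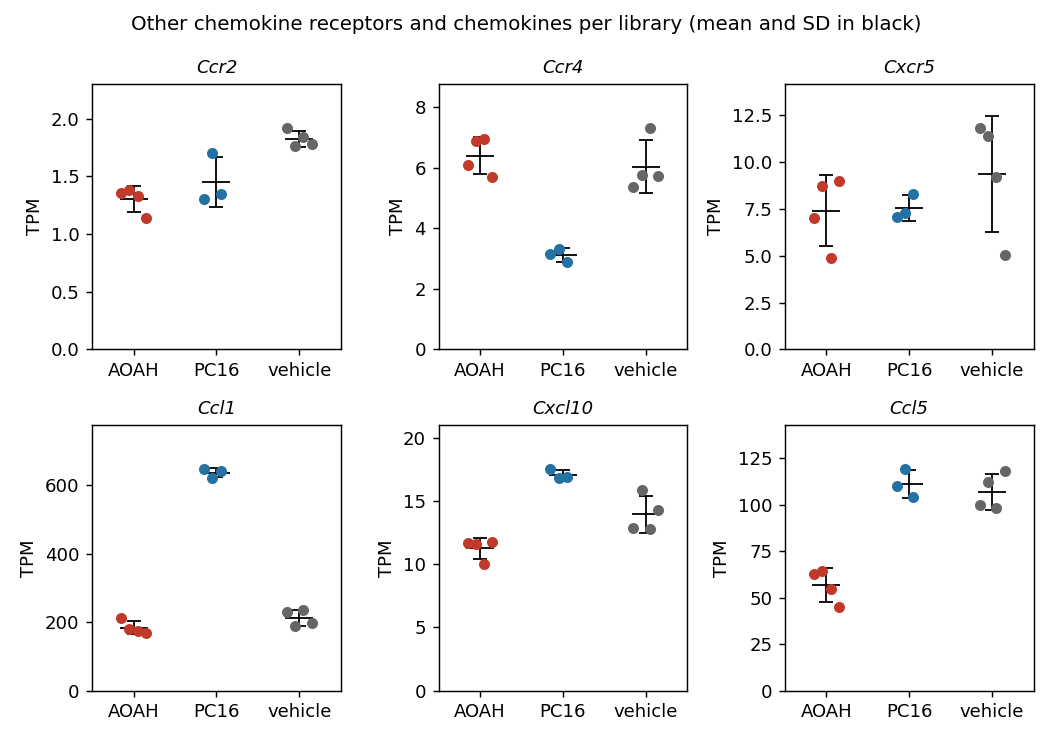
TPM per library of 3 further chemokine receptors (top row) and 3 chemokines (bottom row) in the AOAH, PC16 and vehicle groups, each on a linear axis from 0, with the group mean and SD in black. Ccr4 is lowest in the 3 PC16 libraries at 2.89 to 3.32 TPM, Ccl1 is highest there at 621 to 647 TPM, and Ccl5 is lowest in the 4 AOAH libraries at 44.8 to 64.6 TPM.

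Of 14 listed ligands of the 6 receptors, 7 were in the table and the rest were not analysed here. Cxcl12, Cxcl9, Cxcl11 and Cxcl16 stayed under 1 TPM, with at most 0.01, 0.81, 0.03 and 0.49 TPM in any library. Ccl1, Cxcl10 and Ccl25 were tested. Ccl1, the ligand of CCR8, stood at 647, 621 and 642 TPM in PC16 libraries, against 231, 189 and 235 TPM in vehicle libraries 1 to 3 (log2 change 1.55 ± 0.08, SE, limma adjusted p = 4.62e-04). With AOAH it did not pass, at 184 ± 19.1 TPM in AOAH libraries, against 213 ± 23 TPM in vehicle libraries (log2 change -0.21, limma adjusted p = 0.128). Cxcl10, a ligand of CXCR3, fell to 11.3 ± 0.841 TPM with AOAH, against 14 ± 1.44 TPM with vehicle (log2 change -0.28, limma adjusted p = 0.0305). That call was lost with no expression minimum (0.0695), with quantile normalization (0.0808) and without AOAH 2 (0.0536), AOAH 3 (0.0711), vehicle 2 (0.0704) or vehicle 4 (0.0733). In the direct comparison Cxcl10 was lower with AOAH than with PC16 (log2 change -0.56, limma adjusted p = 2.66e-04), as was Ccl1 (-1.79, 2.63e-06).

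Ccl25, the ligand of CCR9, averaged 6.71 ± 0.931 TPM in PC16 libraries, against 4.5 ± 0.806 TPM in vehicle libraries 1 to 3 (log2 change 0.49, limma adjusted p = 0.0461). The call was lost with vehicle 4 included (0.0749), with 1 fit over all libraries (0.153), with no expression minimum (0.121) and with batch as a block (0.0786). It was lost as well without PC16 1 (0.0730), PC16 2 (0.0876), PC16 3 (0.131), vehicle 2 (0.105) or vehicle 3 (0.116).

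Of 25 other chemokines listed, 22 were in the table and 7 were tested, of which 3 rose and 2 fell with AOAH, beside 13.1% and 12.1% of all genes. Ccl5, a chemokine of effector and memory T cells, stood at 62.9, 64.6, 54.4 and 44.8 TPM in AOAH libraries, against 99.7, 112, 98.3 and 118 TPM in vehicle libraries. No AOAH library reached the vehicle range, and the log2 change was -0.92 ± 0.11 (SE, limma adjusted p = 8.17e-04). The other to fall was Ccl22, a ligand of CCR4 (log2 change -0.57, limma adjusted p = 0.00930). It is a low gene, averaging 1.17 TPM with AOAH and 2.24 TPM with vehicle. Ccl22 kept its call in the 15 alternatives that hold a value, with log2 changes from -0.87 to -0.23. Ccl3 rose (log2 change 0.38, limma adjusted p = 0.00749). Ccl4 (0.12, limma adjusted p = 0.0442) and Xcl1 (0.13, 0.0476) also passed. Ccl4 lost its call without AOAH 1, AOAH 2, vehicle 2 or vehicle 4, with no expression minimum, with quantile normalization and with batch as a block (adjusted p of 0.0732 to 0.111). Xcl1 lost its call without AOAH 1 (0.0776), AOAH 2 (0.0597), AOAH 4 (0.0707), vehicle 2 (0.117), vehicle 3 (0.0849) or vehicle 4 (0.112), with no minimum (0.106) and with the block (0.0903). With PC16, where 8.27% of all genes were called higher, 4 of the 7 rose and none fell, Ccl9 (log2 change 0.57), Xcl1 (0.50), Ccl4 (0.44) and Ccl3 (0.43). Ccl3 missed the threshold without PC16 2 (limma adjusted p = 0.0515). All 7 were lower with AOAH than with PC16, beside 21.5% of all genes, although Ccl3 (log2 change -0.10) lost that call with 1 fit over all libraries (limma adjusted p = 0.270) and with quantile normalization (0.192).

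Other receptors of T cell trafficking were tested beside the chemokine receptors. With AOAH 8 of 13 tested genes fell and 2 rose, with a median log2 change of -0.29, where 12.1% of all genes were called lower and 13.1% higher. The number that rose is near that background. S1pr1, which lets T cells leave lymph nodes, stood at 8.05, 6.12, 7.97 and 6.91 TPM in AOAH libraries, against 28.1, 32.6, 27.4 and 32.7 TPM in vehicle libraries. No AOAH library came near that range, and the log2 change was -1.92 ± 0.09 (SE, limma adjusted p = 1.00e-05). S1pr4 (log2 change -0.74) and the integrin chain Itgae (-0.86), which binds E-cadherin with Itgb7 (-0.60), fell too, and the members that rose were Cd44 (0.21) and Cd69 (0.11). Cd69 did not pass with 1 fit over all libraries (limma adjusted p = 0.0950) or with quantile normalization (0.0808). With PC16 5 of 13 rose and none fell, with a median of 0.12, where 8.27% of all genes were called higher and 11.2% lower. Among these were S1pr1 (0.88), S1pr4 (0.72), Gpr183, an oxysterol receptor (0.52), and Selplg, a selectin ligand (0.14). Gpr183 lost its call without PC16 1 (0.0651), PC16 3 (0.0761) or vehicle 1 (0.0689) and with no minimum (0.0649). Selplg lost it without PC16 2 (0.0872), PC16 3 (0.0919), vehicle 1 (0.0865) or vehicle 3 (0.0796) and with no minimum (0.0758). In the direct comparison, in which 21.5% of all genes were called lower and 24.3% higher, 9 of 13 were lower with AOAH than with PC16 and 1 was higher, Itgal, a chain of LFA-1. Itgal lost that call in 8 of 15 alternatives, among them batch as a block (0.115), quantile normalization (0.446) and leaving out AOAH 2 (0.0574), AOAH 3 (0.0704), AOAH 4 (0.0879), PC16 1 (0.130) or PC16 3 (0.0957).

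Among 9 tested transcription factors listed as possible receptor regulators, 4 fell and 2 rose with AOAH, beside 12.1% and 13.1% of all genes. Whether each acts on any of the 6 receptors was not tested. Klf2, which drives S1pr1, stood at 12.1, 11.6, 12.85 and 10.5 TPM in AOAH libraries, against 38.7, 46, 38.5 and 50.4 TPM in vehicle libraries. The lowest vehicle library was above every AOAH library, and the log2 change was -1.79 ± 0.10 (SE, limma adjusted p = 1.61e-05). Tcf7 (log2 change -0.44) and Foxo1, which acts on Klf2 and Ccr7 (-0.34), also fell, as did Lef1 (-0.19). Lef1 lost that call in 10 of 16 alternatives, among them batch as a block (adjusted p = 0.0559) and leaving out any AOAH or vehicle library other than AOAH 4 (0.0520 to 0.113). Tbx21, which encodes T-bet and drives Cxcr3, rose to 69.2 ± 4.24 TPM with AOAH, against 55.7 ± 3.18 TPM with vehicle (log2 change 0.31 ± 0.05, SE, limma adjusted p = 0.00371). Cxcr3 itself was lower in the same libraries. With PC16 Tbx21 fell to 45.4 ± 1.38 TPM, against 56.5 ± 3.33 TPM with vehicle (log2 change -0.31, limma adjusted p = 0.00888). In that comparison Cxcr3 had a log2 change of the same sign (-0.16), which did not pass (limma adjusted p = 0.0524). The part of Tbx21 in the level of Cxcr3 was not tested. The factors that rose with PC16, 4 of 9, were Klf2 (1.18), Tcf7 (0.31), Bach2 (0.42) and Lef1 (0.36), the last of which lost its call in 7 of 15 alternatives, batch as a block (0.0545) and leaving out PC16 2 (0.0534), PC16 3 (0.0741), vehicle 1 (0.0623), vehicle 2 (0.0648) or vehicle 3 (0.0514) among them. Of all genes 8.27% were called higher with PC16. Directly compared, 6 of 9 were lower and 2 higher with AOAH than with PC16, beside 21.5% and 24.3% of all genes, so the number higher is near the background.

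Of 30 tested genes that carry the signal of chemokine receptors, 11 fell and 4 rose with AOAH, 7 rose and 2 fell with PC16, and 16 were lower and 4 higher with AOAH than with PC16. Of all genes 12.1% were called lower and 13.1% higher with AOAH, 8.27% higher and 11.2% lower with PC16, and 21.5% lower and 24.3% higher in the direct comparison. The 4 that rose with AOAH are near that background. The 2 that fell with PC16 and the 4 higher in the direct comparison lie below theirs. The counts include Rhoa, whose call was lost in 10 of 16 alternatives with AOAH and 7 of 15 with PC16. In the direct comparison Rgs2 lost its call in 8 of 15 alternatives and Gnb2 in 7 of 15. Prex1, a Rac activator downstream of G proteins, fell with AOAH (log2 change -0.48 ± 0.04, SE, limma adjusted p = 7.83e-05) and rose with PC16 (0.31 ± 0.05, 0.00795). Rassf5 (-0.27) and Pik3r5 (-0.36), which act in integrin activation and in PI3 kinase signalling, fell with AOAH. Several RGS genes, whose products switch G proteins off, rose in both. Rgs16 averaged 207 ± 2.45 TPM with AOAH, 253 ± 5.65 TPM with PC16 and 171 ± 12.1 TPM with vehicle (log2 change 0.27 with AOAH and 0.54 with PC16), and Rgs2 had log2 changes of 0.42 and 0.61. Rgs1 rose with AOAH (0.53) and with PC16 (0.32), and its call with PC16 was lost without PC16 1 (limma adjusted p = 0.0610), PC16 2 (0.0842) or PC16 3 (0.0956) and with no minimum (0.0886). Others of the family fell with AOAH, Rgs14 (-0.32, limma adjusted p = 0.00327) and Rgs10 (-0.25, 0.0299), and Rgs10 lost that call in 7 of 16 alternatives, without AOAH 2 (0.0737), AOAH 4 (0.0738), vehicle 2 (0.0776), vehicle 3 (0.0638) or vehicle 4 (0.0525) among them. Gng2, a G protein subunit, fell with PC16 (-0.60, limma adjusted p = 0.00223).

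**Figure D5:**
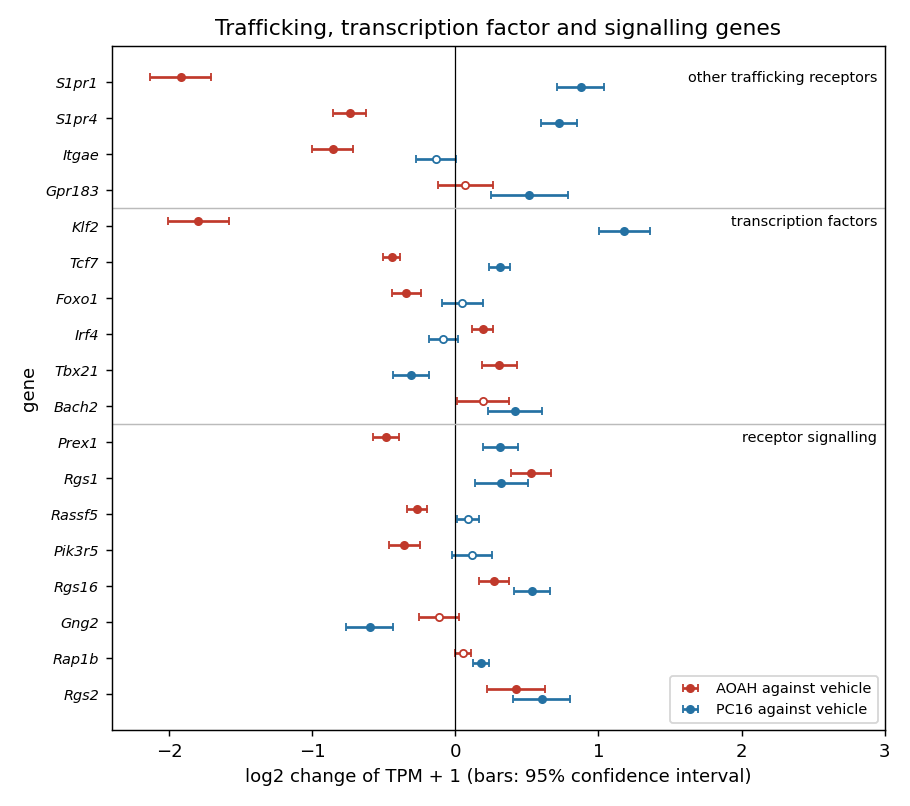
Log2 change of TPM plus 1 with its 95% confidence interval for trafficking receptors, transcription factors and signalling genes, with AOAH against vehicle above PC16 against vehicle for each gene and filled points where the limma adjusted p was under 0.05. S1pr1, S1pr4, Klf2, Tcf7 and Prex1 are below 0 with AOAH and above 0 with PC16, whereas Rgs1, Rgs2 and Rgs16 are above 0 in both.

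The authors' deposited tables test counts of the same libraries with DESeq2, and call 17.1% of the genes with an adjusted p for AOAH and 13.4% for PC16. For AOAH the authors' deposited table gives log2 fold changes of -1.75 ± 0.22 for Cxcr4, -1.51 ± 0.19 for Ccr9, -0.57 ± 0.11 for Cxcr6, -0.34 ± 0.05 for Ccr7 and -0.32 ± 0.10 for Cxcr3 (standard errors). Their highest adjusted p in the authors' deposited table is that of Cxcr3, 0.00961, and Ccr8 (0.86 ± 0.62) is not called, with 0.414. The base mean of Ccr8 in the authors' deposited table is 16.3 normalized counts, against 12665 for Ccr7. For PC16 the authors' deposited table calls Cxcr4 (0.83 ± 0.18, adjusted p = 5.77e-05) and also Ccr7 (0.15 ± 0.05, 0.0224), which did not pass with limma on TPM. In the authors' deposited table Ccr9 (0.24), Cxcr6 (0.20) and Cxcr3 (-0.15) are not called for PC16, and Ccr8 has no adjusted p there.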

How the data were processed

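The authors quantified 11 libraries with RSEM, per the submitters' processing notes, and deposited log2 values of TPM plus 1, as the values themselves show. The notes name the build mm39, and no aligner, annotation or version. Per gene, 2 tables the authors made with DESeq2 list mean normalized counts (a signal), log2 fold changes with errors, Wald scores and p-values, raw and adjusted. The repertoire table was not used. Pseudocount and minimum were both 1 TPM (mean over the libraries compared). Gene tests used limma 3.58.1 with trend and robust variance, two-sided, adjusted over all genes tested, with a threshold of 0.05. They were also run on simulated data, with an outcome not reported here. The simulated noise was independent for each gene, so that run cannot speak to spread shared within a library or batch. PC16 was compared with vehicle 1 to 3 because the label of vehicle 4 does not list that comparison. The receptors and gene lists were chosen with earlier results of these data known. Genes outside the 6 receptors were named if past the threshold with a mean of at least 5 TPM, at most 4 a list and comparison by lowest p; others were named after their values were seen. The reported fits did not pair libraries by batch, which entered only as a block in an alternative. By the batch labels, same-batch libraries of different groups had a mean correlation of deviations of -0.00332 (10 pairs), and different-batch ones 0.00114 (30 pairs). Gene order and promoters come from RefSeq, build GRCm38.p6, and Ensembl IDs of the deposited tables matched symbols in 22521 of 23418 and 23450 of 24346 cases. Alternatives were pseudocounts of 0.1 and 5, no minimum and 5 TPM, batch as a block, 1 fit over 11 libraries, TMM and quantile scaling, vehicle 4 included for PC16, and each library left out. Values of some genes on the lists are not reported here, and the list counts include them.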

Additional observations from a re-analysis of the deposited data

Results flagged for a closer look

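Cxcr3 in vehicle 4 stood at 33.48 TPM, apart from 30.37 to 30.84 TPM in the other vehicle libraries. Cxcl10 in AOAH 3 stood at 10.01 TPM, apart from 11.58 to 11.79 TPM in the other AOAH libraries. Both were singled out because 1 library lay far from the other 3 of its group, relative to the range of the group. Of 70 groups of 4 libraries examined 2 were singled out, and chance singles out about 5%. Without vehicle 4 the log2 change of Cxcr3 with AOAH was still past the threshold.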

How the results depend on the processing

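Of 255 alternative values for 17 receptor results, 248 kept their direction and their side of the threshold, 6 passed where the reported fit did not, and 1 turned its sign. Sizes of low genes depend on the pseudocount: at a pseudocount of 5 the log2 change with AOAH was -0.61 for Ccr9 and -0.94 for Cxcr4, and against PC16 -0.69 for Ccr9 (with 0.1, -1.47, -1.72 and -1.61), while Ccr8 with PC16 was 0.16 at 5 and 0.88 at 0.1. With PC16, Cxcr3 passed at a log2 change of -0.16 with a minimum of 5 TPM, and at -0.19 with 1 fit over all 11 libraries and with vehicle 4 included. Cxcr6 passed at 0.19 with that fit and with vehicle 4. The receptors called with PC16 then numbered 2 higher and 1 lower, and with the 5 TPM minimum 1 higher and 1 lower. Leaving out each library moved Cxcr6 with PC16 between 0.13 and 0.23, and the receptors called higher between 1 and 2; Ccr8 in AOAH against PC16 ranged from -0.26 to 0.054. The fit with batch as a replicate block changed no receptor call (Cxcr4 with AOAH had a log2 change of -1.49). The count of all genes called with PC16, 2270, was 1339 with no minimum, 1405 without PC16 2, 1387 without PC16 3, 1274 without vehicle 1 and 1391 without vehicle 3. Ccr9 had no value under the 5 TPM minimum in AOAH against vehicle and AOAH against PC16. Of 552 counts for the other gene lists 54 moved by over 1.5 times. Depth is unknown. The cause of these changes was not tested.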
